A study of Homo sapiens with 9 samples.

Results

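The 9 genes described here encode enzymes of glutamine and glutamate metabolism. They are the rows of the count table whose NCBI gene identifier belongs to GLUL, GLS2, GLUD1, GOT1, GOT2, GPT2, ASNS, ALDH18A1 or PYCR1, and all 9 were found among 28395 genes. Their mRNA was measured by RNA-seq in 3 human kidney lines. HK2 is an immortalized line of proximal tubule cells from normal kidney, 786-O was established from a primary clear cell renal cell carcinoma (ccRCC), and 786-M1A was derived from 786-O through lung metastases in mice. All were kept in Plasmax, a medium with the nutrient composition of human serum, with no treatment, and each line gave 3 libraries from replicate dishes. Every group is therefore a single line, so that what belongs to the cancer state cannot be told apart from what belongs to the individual line, and p-values measure only the spread between dishes. The comparison with HK2 asks how the cancer lines differ from normal tubule cells, and that of 786-M1A with 786-O asks what differs in the metastatic derivative.

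Glutamine carries nitrogen between tissues and enters cells as a source of carbon and amide nitrogen. Glutaminases such as GLS2 release its amide group to give glutamate, and glutamine synthetase (GLUL) runs the reaction the other way with ammonia and ATP. Glutamate dehydrogenase (GLUD1) and the aminotransferases (GOT1, GOT2, GPT2) exchange glutamate with 2-oxoglutarate, with aspartate and alanine as the other products of the aminotransferases, while ASNS spends the amide nitrogen of glutamine on asparagine, and ALDH18A1 and PYCR1 turn glutamate into proline. The proximal tubule is a site of renal glutamine breakdown and ammonia formation, and branched-chain aminotransferases such as BCAT1 pass nitrogen to the same glutamate pool.

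Between 30212291 and 45362428 counts were assigned to genes in each library, so that 3 counts, the floor used here, corresponded to 0.0649 to 0.0966 CPM. CPM is the count scaled to 1000000 counts of the library, here with the TMM factors of edgeR, and the biological coefficient of variation between dishes was 3.93%. Every library had its closest other library within its own line. PAX8, a transcription factor of the renal lineage, had 5137 to 8035 counts in every library and the epithelial keratins KRT8 and KRT18 had at least 6280 counts in every library, with 13124 to 30440 in HK2 and 6280 to 14808 in the cancer lines. GGT1, a brush border enzyme, had 3077 to 4841 counts throughout, and the renal genes PAX2 (108 to 1155 counts) and CDH16 (164 to 601 counts) were also present. ANPEP, another brush border enzyme, had 58 to 74 counts in HK2, 4174 to 5133 in 786-O and 711 to 782 in 786-M1A. However, the apical receptor LRP2 was at 0 in all 9 libraries, CUBN reached at most 49 counts and the phosphate transporter SLC34A1 at most 14. These 3 markers of mature proximal tubule were thus at or near 0 in HK2 as well, while the others of the list of 10 had at least 58 counts in every library. CA9, a hypoxia-induced carbonic anhydrase of ccRCC, had 0 to 3 counts in every library, while EGLN3, a HIF-induced prolyl hydroxylase, rose from 56 to 77 counts in HK2 to 1827 to 4899 in the cancer lines. Of the same ccRCC list, ANGPTL4 had 85 to 171 counts throughout and was not called in any comparison. CD70 had 1981 to 2714 counts in HK2 and 12138 to 18692 in the cancer lines, and VIM 41876 to 66157 and 182907 to 248848. PTPRC and CD3E of leukocytes were at 0, although CD68 had 1032 to 2356 counts in every library. The endothelial genes PECAM1, VWF and CDH5 had at most 3 counts. Of the fibroblast list COL1A2 had at most 4 counts and DCN at most 7, while COL1A1 and PDGFRB differed widely between the lines. PDGFRB had 10075 to 10811 counts in 786-M1A and 86 to 203 elsewhere. Whether such differences have a part in the results was not tested. In such bulk libraries, fewer cells of a kind and less RNA per cell cannot be told apart.

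The stretches before the start sites of 4 of the genes are printed, that of GLUL because its reads were nearly absent in the cancer lines, and those of ASNS, GOT1 and ALDH18A1 because they hold a match to a motif searched in all windows. Windows of 250 bases before a RefSeq start on GRCh38 were found for 7 of the 9 genes, and 9 windows in all, since GLUL and ASNS have 2 starts each. GPT2 and PYCR1 are named only. All windows are read on the strand of the gene, which is the minus strand for each of them. For GLUL the capitals mark CG dinucleotides in the window of its upstream start, chr1:182391791-182392040. It held 25 of them with a GC content of 74.8%, and 78.4% of 35116 promoter windows of the same length held fewer.
GLUL: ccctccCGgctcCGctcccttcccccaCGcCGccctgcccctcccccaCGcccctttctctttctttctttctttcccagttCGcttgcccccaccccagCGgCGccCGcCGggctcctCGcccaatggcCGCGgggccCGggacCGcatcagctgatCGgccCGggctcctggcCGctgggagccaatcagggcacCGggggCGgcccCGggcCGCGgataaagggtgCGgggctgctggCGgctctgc
Capitals in the next sequences mark motif matches. The motif TGATGNAA of C/EBP-ATF composite sites, bound by ATF4 dimers, was searched on both strands and lay in 3.14% of the promoter windows. The E-box CACGTG, a palindrome bound by MYC, MAX and related factors, lay in 6.34%, and in the member windows no match of one overlapped a match of the other. In ASNS (chr7:97872409-97872658) the first motif began 68 bases before the start.
ASNS: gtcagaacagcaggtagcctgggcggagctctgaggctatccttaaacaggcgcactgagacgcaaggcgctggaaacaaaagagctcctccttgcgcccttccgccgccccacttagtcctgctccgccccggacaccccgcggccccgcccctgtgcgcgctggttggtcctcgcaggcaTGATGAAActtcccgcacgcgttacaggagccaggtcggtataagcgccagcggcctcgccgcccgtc
In GOT1 (chr10:99430625-99430874) it was read on the opposite strand, 198 bases before the start.
GOT1: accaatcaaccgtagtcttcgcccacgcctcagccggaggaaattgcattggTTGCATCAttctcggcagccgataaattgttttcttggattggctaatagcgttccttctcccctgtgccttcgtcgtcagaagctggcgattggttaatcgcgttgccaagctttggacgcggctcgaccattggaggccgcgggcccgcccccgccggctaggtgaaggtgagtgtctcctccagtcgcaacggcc
In ALDH18A1 (chr10:95656712-95656961) the E-box lay 136 bases before the start.
ALDH18A1: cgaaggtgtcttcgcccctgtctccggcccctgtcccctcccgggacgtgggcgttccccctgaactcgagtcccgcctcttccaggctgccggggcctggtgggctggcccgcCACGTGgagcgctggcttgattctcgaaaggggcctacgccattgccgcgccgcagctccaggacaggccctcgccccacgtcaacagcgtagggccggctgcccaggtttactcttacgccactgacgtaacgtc
The other member windows held neither motif, and a match is a description of letters and not evidence of binding.

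**Figure D1:**
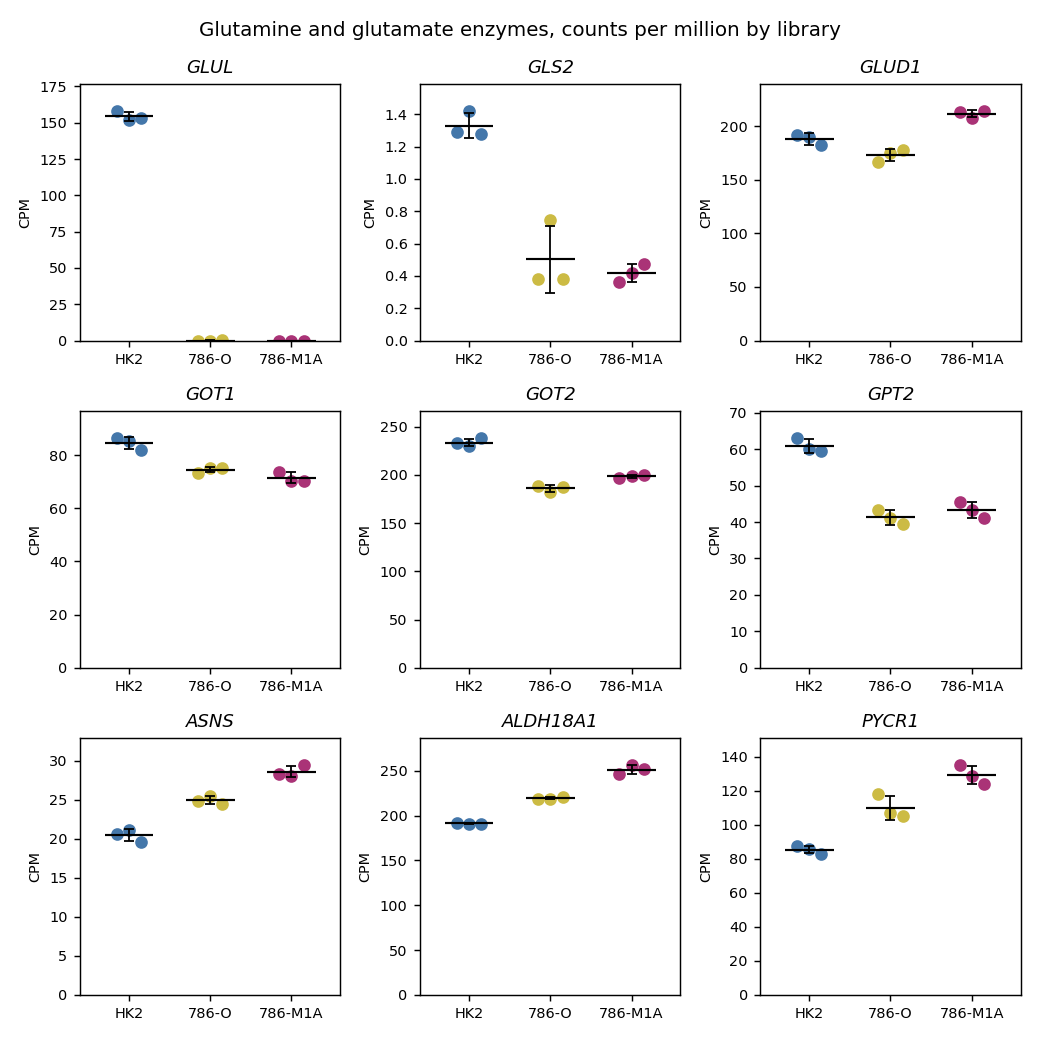
CPM (TMM-scaled, linear axes from 0) of the 9 enzymes in each library. Points are libraries, the horizontal line is the mean of 3 libraries and the error bar its SD. GLUL fell from 152 to 158 CPM in HK2 to at most 0.0236 CPM in the cancer lines, and ASNS, ALDH18A1 and PYCR1 were lowest in HK2 and highest in 786-M1A in all libraries.

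Of the 9 enzymes, 8 averaged 50 counts or more per library and were tested, and GLS2 was below this filter. In 786-O against HK2, 8 of 8 passed the threshold of an adjusted p of 0.05 (edgeR quasi-likelihood test, Benjamini-Hochberg over 12695 genes), against 84.2% of all genes tested. ASNS, ALDH18A1 and PYCR1 were higher in 786-O, against 41.6% of all genes, and GLUL, GLUD1, GOT1, GOT2 and GPT2 were lower, against 42.6%. Only GLUL, 1 of the 8, differed by at least 2-fold, against 22.3% of all genes, and the libraries of the lines did not overlap for any of the 8, against 85.5%. In 786-M1A against HK2, 8 of 8 passed as well, against 84.9% of all genes. Here 4 were higher (GLUD1, ASNS, ALDH18A1 and PYCR1, against 41.6%) and 4 lower (GLUL, GOT1, GOT2 and GPT2, against 43.3%), again only GLUL by at least 2-fold, against 25.4%, and all 8 without overlap, against 85%. Between 786-M1A and 786-O, 5 of 8 passed, against 56% of all genes. All 5 were higher in 786-M1A (GLUD1, GOT2, ASNS, ALDH18A1 and PYCR1, against 27.9% higher and 28% lower over all genes), none by 2-fold, against 6.59%, and the same 5 had libraries that did not overlap, against 61.6%. Most genes therefore differed between these lines, and what sets GLUL apart is its size rather than the call. The range of its mean log2 CPM over the lines exceeded that of 99.9% of the genes tested, while the other 7 ranges exceeded those of 16.7% to 49.7%.

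The median log2 fold change of the 7 enzymes tested other than GLUL was -0.12 in 786-O against HK2, 0.17 in 786-M1A against HK2 and 0.19 in 786-M1A against 786-O, beside medians of -0.01, -0.02 and 0 over all genes. With GLUL included, at any value below the others, the first of these was -0.15. The second was then -0.03, on the other side of 0 from its value without GLUL. Between the cancer lines no fold of GLUL is given, so the third stands without it. The comparisons share their libraries, 786-O and 786-M1A being set against the same HK2 dishes. The 9 genes together took 0.103% to 0.106% of the counts in HK2 libraries, 0.0827% to 0.0838% in 786-O and 0.0901% to 0.0909% in 786-M1A. Without GLUL the share in HK2 was 0.0873% to 0.09%, so that only the 786-O libraries stayed below those of HK2.

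GLUL, the glutamine synthetase gene (chromosome 1, 182378098 to 182392206 on GRCh38, minus strand), had 4903, 6119 and 7088 counts in the 3 HK2 libraries. In 786-O it had 0, 0 and 1 counts, and in 786-M1A 0, 0 and 0. The groups did not overlap, and both cancer lines lay below the floor of 3 counts in every library. The mean level of 154 ± 3.10 CPM (SD, n = 3 libraries per line) in HK2 stood against 0.00788 ± 0.0136 CPM in 786-O and 0 in 786-M1A. Summed over the libraries of a line, 1 count in 786-O stood against 18110 in HK2, a scaled ratio of 19100 with a 95% counting interval of 3440 to 756000. In 786-M1A the sum was 0, and against a floor of 3 counts over the line GLUL was at least 5770-fold lower than in HK2. Both differences passed the edgeR test (adjusted p = 1.29e-24 and 1.67e-24). GLUL met the filter on mean counts only through HK2, so these p-values add nothing to the counts themselves. No fold is given between the cancer lines, which were both at or under the floor. Of 4 annotated GLUL pseudogenes none was in the count table, so that reads shared with them could not be followed.

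The surrounding genes show whether the loss of reads reached beyond GLUL. Within 1.5 megabases on either side of its start lay 23 protein-coding genes of the table, GLUL included. Of these, 13 had at least 10 counts in every library, and 8 had at most 5 counts in every library, HK2 among them. IER5, an immediate early gene at -1289.4 kb, had 1230 to 1936 counts over the 9 libraries, and DHX9, an RNA helicase at 461.2 kb, had 14245 to 21170. DHX9 was not called in either cancer line against HK2 (log2 fold changes 0.06 and -0.02, adjusted p = 0.152 and 0.645). NMNAT2, an enzyme of NAD synthesis 870.1 kb from GLUL, was the other gene of the window with over 100 counts in each HK2 library and under 10 in each library of the cancer lines, falling from 125 to 192 counts to 4 to 7 in 786-O and 0 to 2 in 786-M1A. These neighbours were picked out after their values were seen.

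**Figure D2:**
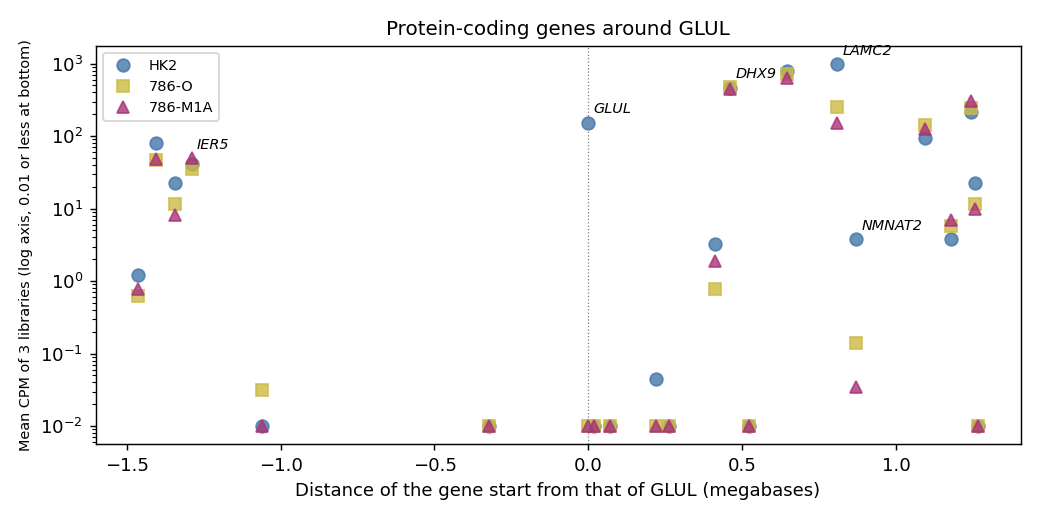
Mean CPM of 3 libraries per line (log axis, values of 0.01 or less drawn at 0.01) for 22 of the 23 protein-coding genes, by the distance of their starts from that of GLUL in megabases. GLUL is at 154 CPM in HK2 and on the bottom line in both cancer lines, while IER5 at -1289.4 kb and DHX9 at 461.2 kb have reads in all lines.

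The genes whose values over the 9 libraries were most like those of GLUL, by Euclidean distance of mean-centred log2 CPM among 12694 genes, were GDF6 (distance 0.436), a growth factor of the BMP family, CDKN2A (0.692), which encodes cell cycle inhibitors, and DKK1 (0.841), a secreted WNT antagonist. GDF6 reached 125 ± 5.99 CPM in HK2, with 0.00788 ± 0.0136 in 786-O and 0 in 786-M1A. CDKN2A was at 180 ± 10.3 CPM in HK2 and at 0 in all libraries of both cancer lines. DKK1 was at 164 ± 6.04 CPM in HK2, with 0 in 786-O and 0.00922 ± 0.0160 CPM in 786-M1A. Each was thus well expressed in HK2 and at or below 1 count per library in the cancer lines, which is all that the distance measures.

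GLS2, the liver-type glutaminase (chromosome 12, 56470944 to 56488414), was the member with the fewest counts apart from the cancer lines' GLUL. It had 40, 57 and 59 counts in HK2, 17, 28 and 16 in 786-O and 13, 16 and 18 in 786-M1A. HK2 lay above both cancer lines without overlap, at 1.33 ± 0.0777 CPM against 0.502 ± 0.210 and 0.418 ± 0.0581, and the cancer lines overlapped each other. Its mean of 29.3 counts was under the filter, so it entered no count of calls. In the fit without a filter, over 21241 genes, its log2 fold change was -1.41 (SE 0.231, adjusted p = 2.95e-09) in 786-O and -1.63 (SE 0.246, adjusted p = 8.7e-11) in 786-M1A against HK2. Between the cancer lines it was -0.23, with a 95% interval of -0.82 to 0.37 (adjusted p = 0.615). Permuting the libraries exactly on log2 CPM (a two-sided test) gave p = 0.1 for each cancer line against HK2, the smallest value possible with 3 against 3 libraries, and 0.8 between the cancer lines. Exons of GLS2 overlap those of SPRYD4 on the opposite strand, which had 214 to 635 counts, so that at its low level a few misassigned reads would matter, and whether counting used the strand is not stated.

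GLUD1, mitochondrial glutamate dehydrogenase (chromosome 10, 87050202 to 87094843), was the only one of the 8 tested enzymes that differed from HK2 in opposite directions in the cancer lines. Its levels were 192, 190 and 182 CPM in HK2, 167, 175 and 178 CPM in 786-O and 213, 208 and 214 CPM in 786-M1A. The 3 lines did not overlap, with 786-O lowest and 786-M1A highest. It was 1.08-fold lower in 786-O than in HK2 (log2 fold change -0.12, SE 0.0369, adjusted p = 0.00596), 1.13-fold higher in 786-M1A than in HK2 (0.17, SE 0.0368, adjusted p = 1.94e-04) and 1.22-fold higher in 786-M1A than in 786-O (0.29, SE 0.0368, adjusted p = 8.34e-07). The first of these was lost without 786-O replicate 1 (-0.09, adjusted p = 0.0547), with adjusted p between 5.40e-04 and 0.0547 over all its alternatives. GLUD2, an intronless gene whose coding sequence is nearly that of GLUD1, moved alike, with log2 fold changes of -0.12 (adjusted p = 0.0195), 0.13 (adjusted p = 0.0113) and 0.25 (adjusted p = 7.51e-05) in the same order of comparisons. Its counts were 31.2% to 34.9% of those of GLUD1 in every library of every line. How far the counts of this pair come from shared reads cannot be seen in the table, so their values are uncertain as separate measurements. SHLD2, whose exons overlap GLUD1 on the opposite strand, had 1326 to 3939 counts, and the GLUD1 pseudogenes in the table at most 147.

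GOT1, GOT2 and GPT2, the aspartate and alanine aminotransferases that could be tested, were lower in both cancer lines. GOT1, the cytosolic aspartate aminotransferase (chromosome 10, 99396870 to 99430624), was at 86.3, 85.2 and 81.9 CPM in HK2, 73.3, 75.2 and 75.0 CPM in 786-O and 73.8, 70.1 and 70.3 CPM in 786-M1A. Every HK2 library lay above every cancer library, and the cancer lines overlapped. The log2 fold changes against HK2 were -0.18 (SE 0.0399, adjusted p = 2.74e-04) in 786-O and -0.24 (SE 0.0402, adjusted p = 9.55e-06) in 786-M1A. Between the cancer lines GOT1 did not pass the threshold (-0.06, 95% interval -0.14 to 0.02, adjusted p = 0.205), so that a difference beyond 0.14 on the log2 scale lay outside the interval.

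GOT2, the mitochondrial aspartate aminotransferase and a part of the malate-aspartate shuttle (chromosome 16, 58707131 to 58734342), was at 233, 230 and 238 CPM in HK2, 189, 182 and 187 CPM in 786-O and 197, 199 and 200 CPM in 786-M1A. The 3 lines did not overlap. It was 1.26-fold lower in 786-O (log2 fold change -0.33, SE 0.0343, adjusted p = 1.20e-08) and 1.18-fold lower in 786-M1A (-0.24, SE 0.0343, adjusted p = 1.49e-06) than in HK2. Its higher level in 786-M1A than in 786-O was small (1.06-fold, log2 fold change 0.09, SE 0.0344, adjusted p = 0.0305) and was no longer called without 786-O replicate 2 (0.08, adjusted p = 0.106), 786-O replicate 3 (adjusted p = 0.0621), 786-M1A replicate 2 (adjusted p = 0.0510) or 786-M1A replicate 3 (adjusted p = 0.0513), with adjusted p between 0.0141 and 0.106 over its alternatives. Annotated GOT2 pseudogenes, 6 in number, were not in the count table.

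GPT2, the mitochondrial alanine aminotransferase (chromosome 16, 46884362 to 46931289, plus strand), was at 63.0, 60.1 and 59.5 CPM in HK2, 43.4, 41.1 and 39.4 CPM in 786-O and 45.5, 43.4 and 41.0 CPM in 786-M1A. The HK2 libraries lay well above the others, which overlapped. After GLUL it had the largest decrease among the 8 tested enzymes, 1.47-fold in 786-O (log2 fold change -0.56, SE 0.0488, adjusted p = 6.18e-10) and 1.40-fold in 786-M1A (-0.49, SE 0.0489, adjusted p = 5.38e-09). Between the cancer lines it was not called (0.07, 95% interval -0.03 to 0.17, adjusted p = 0.247). GPT, its cytosolic counterpart, had only 4 to 19 counts in the 9 libraries and was not tested. Its values lay the other way, at 0.159 ± 0.0258 CPM in HK2, below every library of 786-O (0.390 ± 0.123 CPM) and of 786-M1A (0.323 ± 0.134 CPM).

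Because GOT1 and GOT2 catalyse the same reaction in different compartments, their counts were compared within each library, where library scaling has no part. HK2 had 0.369, 0.370 and 0.345 GOT1 counts per GOT2 count, 786-O 0.387, 0.413 and 0.400 and 786-M1A 0.375, 0.353 and 0.352. The ratio was above that of HK2 in every 786-O library (difference of mean log2 ratios 0.15, exact two-sided permutation p = 0.1) and above that of 786-M1A as well (786-M1A minus 786-O -0.15, exact p = 0.1). Between 786-M1A and HK2 the difference was -0.01 (exact p = 1). With 3 libraries against 3 no exact p could fall below 0.1, so none of the ratios could pass 0.05.

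**Figure D3:**
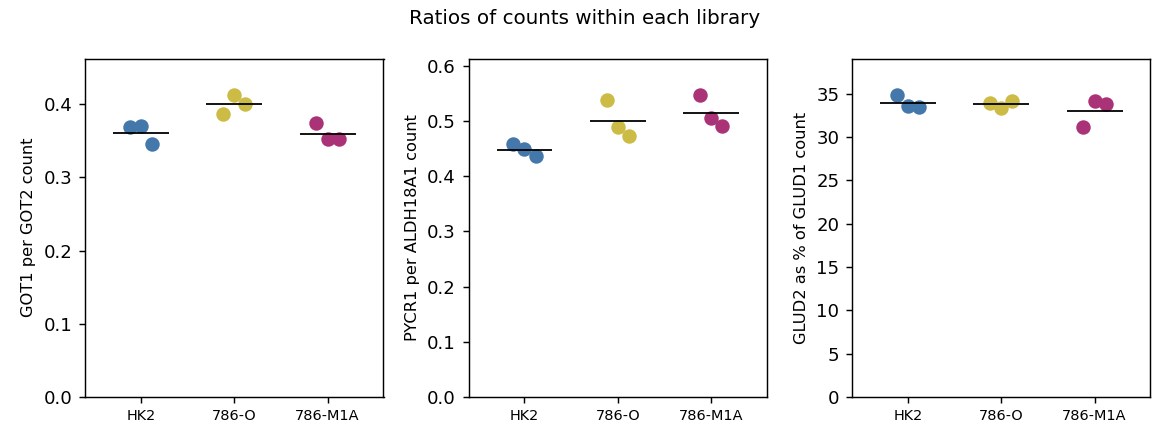
Ratios of counts within each library (linear axes from 0), with points for libraries and lines for the means of 3. The ratio of GOT1 to GOT2 is highest in 786-O (0.387 to 0.413), that of PYCR1 to ALDH18A1 is lowest in HK2 (0.436 to 0.458), and GLUD2 stays between 31.2% and 34.9% of GLUD1.

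The enzymes that use glutamine or glutamate to make asparagine and proline were higher in both cancer lines, and higher again in 786-M1A than in 786-O. ASNS, asparagine synthetase (chromosome 7, 97851677 to 97872542), whose window with a C/EBP-ATF match is printed above, was at 20.6, 21.1 and 19.6 CPM in HK2, 24.9, 25.5 and 24.5 CPM in 786-O and 28.3, 28.1 and 29.4 CPM in 786-M1A. The 3 lines did not overlap, in the order HK2, 786-O, 786-M1A. The differences were 1.22-fold in 786-O against HK2 (log2 fold change 0.29, SE 0.0510, adjusted p = 2.36e-05), 1.40-fold in 786-M1A against HK2 (0.49, SE 0.0508, adjusted p = 1.07e-08) and 1.15-fold in 786-M1A against 786-O (0.20, SE 0.0494, adjusted p = 0.00171). Annotated ASNS pseudogenes, 4 in number, were not in the count table.

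ALDH18A1, the bifunctional enzyme that starts proline synthesis from glutamate (chromosome 10, 95605941 to 95656711), had the tightest values among the members in HK2, at 192, 191 and 191 CPM. It was at 219, 219 and 221 CPM in 786-O and at 246, 256 and 252 CPM in 786-M1A, again without overlap and in the same order. The log2 fold changes were 0.20 (SE 0.0338, adjusted p = 1.08e-05) and 0.39 (SE 0.0338, adjusted p = 4.21e-10) against HK2 and 0.19 (SE 0.0336, adjusted p = 5.23e-05) between the cancer lines.

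PYCR1, the mitochondrial reductase of the last step to proline (chromosome 17, 81932384 to 81942412), had the largest increase against HK2 among the 8 tested enzymes. It was at 87.7, 85.8 and 83.1 CPM in HK2, 118, 107 and 105 CPM in 786-O and 135, 129 and 124 CPM in 786-M1A. Its lines did not overlap either, although the spread was wider in the cancer lines, with SDs of 6.91 and 5.43 CPM against 2.28 CPM in HK2. The increase was 1.29-fold in 786-O (log2 fold change 0.36, SE 0.0464, adjusted p = 2.50e-07), 1.51-fold in 786-M1A (0.60, SE 0.0463, adjusted p = 7.87e-11) and 1.17-fold from 786-O to 786-M1A (0.23, SE 0.0457, adjusted p = 1.96e-04). There were 0.458, 0.449 and 0.436 PYCR1 counts per ALDH18A1 count in HK2, 0.538, 0.490 and 0.473 in 786-O and 0.548, 0.505 and 0.492 in 786-M1A. Both cancer lines lay above HK2 in this ratio (differences of mean log2 ratios 0.16 and 0.20, exact two-sided permutation p = 0.1 each) and overlapped each other (0.04, exact p = 0.5).

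**Figure D4:**
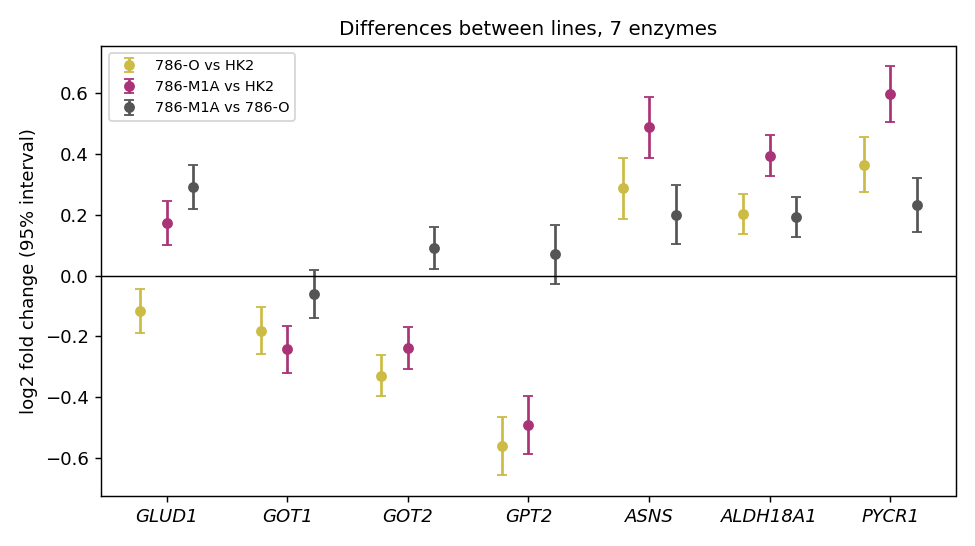
Log2 fold changes with 95% intervals of the 7 tested enzymes other than GLUL in the 3 comparisons. Values above 0 are higher in the line named first. GLUD1 lies below 0 in 786-O (-0.12) and above 0 in 786-M1A (0.17) against HK2, the aminotransferases lie below 0 against HK2, and ASNS, ALDH18A1 and PYCR1 lie above 0 in all comparisons.

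Levels were also set side by side per kilobase of the canonical transcript, as CPM per kb. In HK2 the order was GOT2 (96.5 ± 1.54), GLUD1 (57.0 ± 1.47) and ALDH18A1 (57.0 ± 0.153), which did not differ beyond their spread, GOT1 (42.7 ± 1.14), PYCR1 (37.7 ± 1.00), GLUL (20.4 ± 0.411), GPT2 (15.2 ± 0.478), ASNS (8.57 ± 0.312) and GLS2 (0.556 ± 0.0326). In 786-O GOT2 (76.9 ± 1.55 CPM per kb) still led, followed by ALDH18A1 (65.6 ± 0.393), then GLUD1 (52.5 ± 1.70) and PYCR1 (48.5 ± 3.04), whose libraries overlapped, and GOT1 (37.7 ± 0.535). ASNS (10.5 ± 0.205) and GPT2 (10.3 ± 0.501) did not differ there beyond their spread. In 786-M1A the order was GOT2 (81.9 ± 0.660), ALDH18A1 (74.9 ± 1.57), GLUD1 (64.2 ± 0.957), PYCR1 (56.9 ± 2.39), GOT1 (36.1 ± 1.05), ASNS (12 ± 0.299) and GPT2 (10.9 ± 0.571). PYCR1 was thus below GOT1 in HK2 and above it in both cancer lines, and ASNS was below GPT2 only in HK2. A shorter or longer transcript than the canonical one, used alike in all lines, would shift these levels between genes but not the differences between lines. Whether the lines use the same transcripts was not tested.

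Among 39 other genes of the pathway, 37 were tested. In 786-O against HK2, 10 were higher, 20 lower and 7 not called (median log2 fold change -0.15), in 786-M1A against HK2 13 were higher, 17 lower and 7 not called (-0.09), and between 786-M1A and 786-O 10 were higher, 14 lower and 13 not called (-0.01). Over all genes 84.2%, 84.9% and 56% were called in these comparisons. By direction, 41.6% of all genes were higher and 42.6% lower in the first, 41.6% and 43.3% in the second, and 27.9% and 28% in the third. Whether the list departs from these shares was not tested. The split depended on scaling, with 9 higher and 20 lower in 786-M1A against HK2 under upper-quartile scaling.

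The other aminotransferases divided. PSAT1, which makes phosphoserine with nitrogen from glutamate, was 2.12-fold higher in 786-O (89.8 ± 0.988 CPM) and 2.79-fold higher in 786-M1A (118 ± 3.43 CPM) than in HK2 (42.5 ± 0.360 CPM), with adjusted p = 1.69e-16 and 5.19e-19. BCAT1, the cytosolic branched-chain aminotransferase, was lower in both, with log2 fold changes of -0.37 (adjusted p = 1.34e-08) and -0.76 (adjusted p = 8.58e-14), and lower in 786-M1A than in 786-O (-0.38, adjusted p = 4.92e-08). KYAT1, which transaminates glutamine and kynurenine, exceeded its 786-O level in 786-M1A by 0.68 on the log2 scale (adjusted p = 1.07e-07).

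PYCR3, another reductase of proline synthesis, was higher in both cancer lines against HK2, by 0.74 (adjusted p = 7.33e-11) and 0.82 (adjusted p = 1.03e-11) on the log2 scale, and not called between them (0.09, adjusted p = 0.185).

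Against HK2, 84.2% of all genes were called in 786-O (41.6% higher, 42.6% lower) and 84.9% in 786-M1A (41.6% higher, 43.3% lower). Of 9 users of the amide nitrogen, 2 were higher and 5 lower in 786-O, and 2 higher and 4 lower in 786-M1A. The largest change of this group was that of CTPS1, a CTP synthetase, with log2 fold changes of -1.79 in 786-O and -1.65 in 786-M1A (adjusted p = 1.65e-20 and 6.08e-20), and CTPS2 (-0.49 and -0.67) and GMPS (-0.46 and -0.41), of CTP and GMP synthesis, were also lower. These 3 were picked out after their values were seen. NADSYN1, the glutamine-dependent NAD synthetase, was higher in 786-O (1.15, adjusted p = 1.23e-14) and in 786-M1A (1.29, adjusted p = 1.23e-15), and GFPT2, of hexosamine synthesis, was higher in 786-M1A relative to 786-O (0.51, adjusted p = 4.10e-06). ABAT, the GABA transaminase, had 199 to 304 counts in HK2, 57 to 75 in 786-O and 4 to 7 in 786-M1A, log2 fold changes of -2.00 and -5.32 against HK2 (adjusted p = 1.91e-12 and 3.50e-16) and of -3.32 between the cancer lines (adjusted p = 1.69e-09). ASRGL1, an asparaginase, had log2 fold changes of -2.67 and -3.50 against HK2 (adjusted p = 2.64e-18 and 1.64e-19).

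Transporters held the largest differences of the list. SLC38A5, a carrier of glutamine, had 1308 to 1827 counts in HK2, 151 to 190 in 786-O and 7 to 15 in 786-M1A, which is a log2 fold change of -3.32 (adjusted p = 1.61e-20) and -7.09 (adjusted p = 1.10e-22) against HK2 and of -3.77 between the cancer lines (adjusted p = 1.15e-13). SLC1A1, a glutamate and aspartate carrier, moved the other way, with 93 to 141 counts in HK2 and 901 to 1090 in the cancer lines, 8.10-fold and 8.04-fold higher (adjusted p = 6.36e-20 and 6.91e-20). SLC1A3, of the same family, was lower in 786-M1A than in 786-O (-1.03, adjusted p = 7.18e-07).

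**Figure D5:**
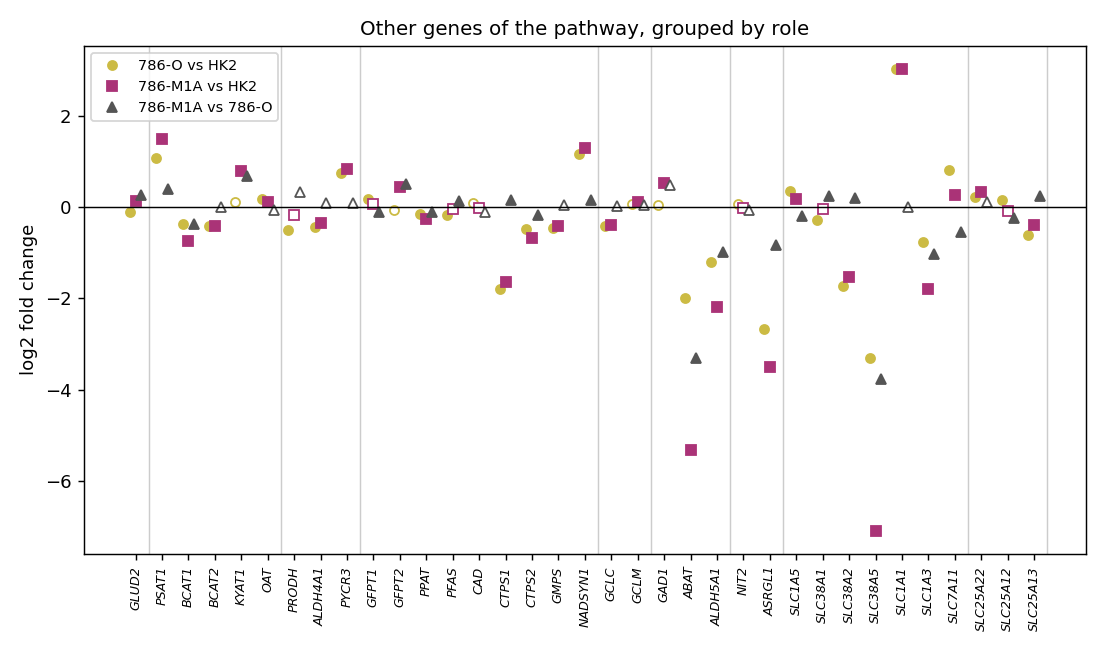
Log2 fold changes of 35 of the 37 tested genes of the wider pathway in the 3 comparisons, grouped by role between grey lines. Filled symbols passed an adjusted p of 0.05 and open symbols did not. SLC1A1 stands highest (3.02 in 786-O against HK2) and SLC38A5 lowest (-7.09 in 786-M1A against HK2).

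ATF4, the transcription factor of the amino acid response, and 12 of its known targets were listed because ASNS, PYCR1 and ALDH18A1 are counted among the genes that it controls. PSAT1 and SLC7A11, which are also counted among them, stand in the pathway list instead. ASNS, PYCR1, ALDH18A1, PSAT1 and SLC7A11 are thus left out of the counts that follow. Each of them was called higher in both cancer lines against HK2. For SLC7A11 the log2 fold changes were 0.815 in 786-O and 0.261 in 786-M1A (adjusted p = 3.22e-12 and 1.55e-04). It was lower in 786-M1A than in 786-O (-0.554, adjusted p = 8.14e-09). Of the 13 listed, 3 were higher and 9 lower in 786-O, and 3 higher and 7 lower in 786-M1A, against HK2, while 5 were higher and 4 lower in 786-M1A against 786-O. Over all genes 84.2%, 84.9% and 56% were called in these comparisons. By direction, 41.6% of all genes were higher and 42.6% lower in 786-O against HK2, and 41.6% and 43.3% in 786-M1A against HK2. In 786-M1A against 786-O these shares were 27.9% and 28%. Whether the list departs from these shares was not tested. Without PHGDH, which was near 0 in both cancer lines, the median log2 fold change was -0.17 against HK2 in each of them and 0.05 between them. ATF4 itself was at 259 ± 9.18 CPM in HK2, at 228 ± 7.12 CPM in 786-O and at 260 ± 4.44 CPM in 786-M1A. Its log2 fold change was -0.18 in 786-O (adjusted p = 1.23e-04) and 0.004 in 786-M1A (not called, adjusted p = 0.924) against HK2, and it was higher in 786-M1A than 786-O (0.19, adjusted p = 2.26e-04). DDIT4, an inhibitor of mTORC1, was higher by 1.59 and 2.12 and SLC3A2, the heavy chain of amino acid exchangers, by 1.11 and 1.34 in 786-O and 786-M1A against HK2 (adjusted p at most 1.04e-14). VLDLR, a lipoprotein receptor, was at -1.10 and -1.57 (adjusted p = 3.46e-16 and 8.43e-19). PHGDH, the first enzyme of serine synthesis, had 2697 to 3749 counts in HK2, 0, 1 and 0 in 786-O, a ratio of 10500 with a 95% counting interval of 1890 to 415000, and 0 in 786-M1A, at least 3160-fold lower. Between the cancer lines TRIB3, a pseudokinase, was higher (0.55, adjusted p = 1.31e-09) and CHAC1, which breaks down glutathione, lower (-0.68, adjusted p = 5.75e-05) in 786-M1A.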

How the data were processed

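RNA from replicate dishes of HK2, 786-O and 786-M1A (3 libraries each) was sequenced from stranded TruSeq mRNA libraries. The authors counted reads on genes with Rsubread (featureCounts in the submitters' processing notes) on the hg38 (GRCh38) build and deposited raw counts without normalization or a low-count filter. The annotation version and the strand setting of the counting are not given in the sources used here. NCBI identifiers were matched to RefSeq symbols for 27745 of 28395 genes, and positions, overlaps and canonical transcript lengths came from GENCODE on GRCh38, the build of the counts.

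The 12695 genes averaging 50 counts or more per library were tested with edgeR 4.0.16 (TMM, robust quasi-likelihood fit, 1 coefficient per line, R 4.3.3), with Benjamini-Hochberg adjustment over all genes tested and a threshold of 0.05. This count test stands in place of the VSN and limma steps of the paper, whose filter was kept. CPM is the count divided by the TMM-scaled total of the tested genes. SEs were derived from the fold change and the F statistic. Within-library ratios were compared with exact two-sided permutation tests. Folds against a line at 0 counts use a floor of 3 counts over the line, and intervals and floors cover counting error only. Alternatives were RLE and upper-quartile scaling, DESeq2 1.42.0, limma-voom (limma 3.58.1), no filter, at least 10 counts in every library, a fit to only the lines being compared, a block for the replicate number, and omission of 1 library at a time.

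The members and the gene lists were chosen with earlier results of these data known. Named are the 9 members, GLUD2, GPT, PYCR3, BCAT1 and ATF4 throughout, and for each comparison the 3 (pathway list) or 2 (ATF4 list) largest changes in each direction past the threshold without overlap between libraries, and the 3 genes nearest to the member with the widest range. Other genes named around GLUL were chosen after their values were seen. The values of a few named by these rules, or lying near GLUL, are left out of this account. Figures were drawn with Python 3.11.15 and matplotlib 3.10.9.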

Additional observations from a re-analysis of the deposited data

Results flagged for a closer look

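For the genes below the log2 fold change against HK2 differed between 786-M1A and 786-O, tested as the contrast of 786-M1A with 786-O in the edgeR fit, in which 56% of all genes passed. Values are the fold change in 786-M1A minus that in 786-O. Among the 9 enzymes the difference was 0.29 for GLUD1, 0.09 for GOT2, 0.20 for ASNS, 0.19 for ALDH18A1 and 0.23 for PYCR1. GLUD1 was the one of these whose change against HK2 also differed in sign.

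In the pathway list 10 genes were higher and 14 lower in this contrast, and only genes named by the rules above are given here. Their differences above 0 were 0.68 for KYAT1, 0.51 for GFPT2, 0.40 for PSAT1, 0.25 for GLUD2 and 0.15 for NADSYN1. Those below 0 were -3.77 for SLC38A5, -3.32 for ABAT, -1.03 for SLC1A3, -0.83 for ASRGL1, and -0.38 for BCAT1. In the ATF4 list 5 genes were higher and 4 lower. For those named by the same rules the differences were 0.55 for TRIB3, 0.53 for DDIT4, 0.23 for SLC3A2, 0.19 for ATF4, -0.47 for VLDLR and -0.68 for CHAC1. Groups of 3 libraries are too small for a check on single outlying libraries.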

How the results depend on the processing

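No count of called genes, for the members, the pathway list, the ATF4 list or all genes, left the range of 1.5 times its value under any alternative (168 counts). Leaving out each library in turn gave 7 to 8 called members in 786-O against HK2, 8 in 786-M1A against HK2 and 4 to 5 between the cancer lines, where GLUD1 and GOT2 lost the calls named beside their values. Of the members' fold changes under the alternatives, 315 kept their side of the threshold, the 5 that did not are those of GLUD1 and GOT2, and none changed direction. Without a filter GLS2 was tested too and 9 members were called against HK2 in each cancer line, and where 10 counts were required in all libraries GLS2 replaced GLUL. Leaving out single libraries moved the log2 difference of the GOT1 to GOT2 ratio between 786-M1A and HK2 from -0.039 to 0.012, and that of the PYCR1 to ALDH18A1 ratio between the cancer lines from -0.004 to 0.095, so neither has a direction. Upper-quartile scaling moved the median of all genes against HK2 to -0.05 in 786-O and -0.07 in 786-M1A.

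Under a replicate block, 8, 8 and 5 members were called in the 3 comparisons, in the order used above, and 10688, 10797 and 7157 of all genes. Same-numbered libraries deviated with correlations across genes of -0.057 to -0.028 (786-O and HK2), -0.168 to 0.038 (786-M1A and HK2) and 0.075 to 0.216 (786-M1A and 786-O), so the numbers were not taken as a pairing. Depth limits GLS2 and, in the cancer lines, GLUL, for which a level below the floor cannot be told from none.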
